A study of Caenorhabditis elegans with 2 samples.

Results

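The genes described here are 10 nutrient-sensing and autophagy genes of Caenorhabditis elegans, taken by name from 19973 protein-coding genes: let-363, daf-15, raga-1, ragc-1, rsks-1, hlh-30, lgg-1, bec-1, atg-9 and atg-18. For each of them every peak summit of DSC-1, a paired-like homeodomain protein, was described in the gene and in the 5 kb upstream of its start. ChIP-seq, in which DNA bound by a protein is recovered with an antibody and sequenced, had been carried out on whole hermaphrodite L1 larvae of strain OP522, genotype unc-119(tm4063) III; wgIs522, which stably carry DSC-1 with a GFP-FLAG tag at its carboxy terminus. By the samples' description the antibody was against GFP, whereas their antibody label names dsc-1, and which holds was not settled here. The larvae had been starved after bleaching and were collected 6 hours after synchronization, in 2 biological replicates. All animals carried the same transgene and received the same treatment, so there was no second condition, and fed larvae, untagged larvae and control libraries were not analysed here. The animals were used whole, so the cells in which a site was occupied cannot be told from these lists.

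TOR is a kinase that promotes growth when amino acids are plentiful, and its complex 1 is recruited to the lysosome by Rag GTPases. When nutrients are scarce TOR activity falls and autophagy, the enclosure of cytoplasm in membranes that fuse with lysosomes, recycles cell contents. Larvae that hatch without food stop developing at L1, and autophagy is known to help them survive. HLH-30, the worm relative of mammalian TFEB, is a transcription factor that activates autophagy and lysosomal genes during starvation.

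Peak lists were deposited for replicate 1 (26482 peaks), replicate 2 (30000 peaks) and the pooled replicates (30000 peaks). Of the pooled peaks, 6283 passed the authors' threshold on the irreproducible discovery rate (IDR), a measure of how well peak ranks repeat between replicates, and these are called IDR peaks. They were the 6283 pooled peaks with the highest signal, the value the authors' peak caller gave each peak on a scale that is not stated. Signals ran from 78.4 to 2260 in the IDR list with a median of 162, and peaks are ranked by signal within each list, 1 being the strongest. The full replicate and pooled lists contain background by the authors' own description. The lists hold no read totals, so depth is unknown, and replicate agreement was read from the rank of the same site in each replicate. Positions are on ce11. No test between groups was possible, and no p-values were computed.

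IDR summits were present at 8 of the 10 genes, 17 summits in all. In the same region, 32.9% of all protein-coding genes had an IDR summit. hlh-30 had 6 summits, let-363 had 3, lgg-1 and atg-9 had 2 each, and daf-15, ragc-1, rsks-1 and atg-18 had 1 each. raga-1 and bec-1 had none. The 4 genes with at least 2 summits compare with 11.4% of all protein-coding genes. A longer region has more room for summits, and the 10 regions had a median length of 10.2 kb, against 7.03 kb over all protein-coding genes. Among the 5 of the 10 genes whose region was under 10 kb, 3 had an IDR summit, against 29.3% of all protein-coding genes with a region under 10 kb. The 10 regions held 1.38 IDR summits per 10 kb, against 0.629 over the regions of all protein-coding genes. Without hlh-30 the other regions held 11 summits, or 1.12 per 10 kb. The genes were chosen with results of these data known, so these counts are a description.

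None of the 17 IDR summits at these genes was among the 1000 strongest. The strongest was at rank 1120 of 6283, the weakest at rank 6066 and the median at rank 3705, and 7 of the 17 were in the stronger 50% of the list. The strongest IDR summit of each of the 8 genes had a median rank of 3217, against 2287 over all protein-coding genes with a summit in their region. When only the stronger 50% of IDR peaks was kept, 4 of the 10 genes kept a summit, namely let-363, hlh-30, lgg-1 and atg-18, where 20.9% of all protein-coding genes did. The 17 signals had a median of 139.

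**Figure D1:**
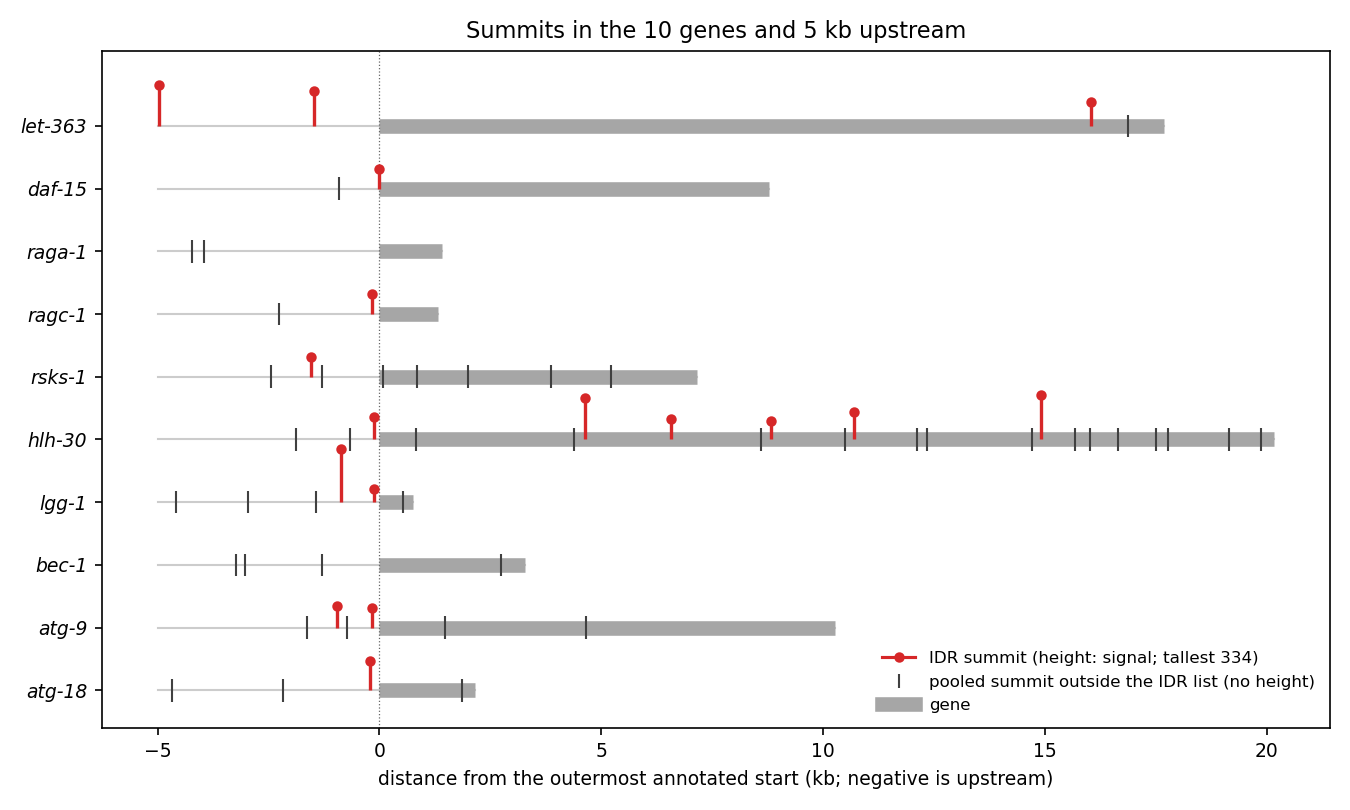
Positions of summits in the 10 genes and 5 kb upstream, by distance from the outermost annotated start in kb (horizontal axis), 1 row per gene, with the gene as a thick grey bar. Red stems are the 17 IDR summits, drawn with a height proportional to signal (the tallest, at lgg-1, is 334), and black ticks are the 43 pooled summits outside the IDR list. In 6 genes, hlh-30 among them, 1 IDR summit lies within 250 bp upstream of the start, a window chosen after the positions had been seen. The remaining hlh-30 summits are spread along its gene body.

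In 6 of the 10 genes an IDR summit lay within 250 bp upstream of the outermost annotated start, a window chosen after the positions had been seen. These were daf-15 (13 bp), hlh-30 (130 bp), lgg-1 (130 bp), atg-9 (157 bp), ragc-1 (164 bp) and atg-18 (216 bp). Over all protein-coding genes 6.82% had an IDR summit in that window. With only the stronger 50% of peaks, atg-18 was the 1 gene left, and with replicate 1 alone 4 genes had a summit in the window. In replicate 1 the daf-15 summit, at rank 2661, was 13 bp downstream of the start. The lgg-1 summit was at rank 7295, outside the 6283 strongest peaks. In the wider promoter window, which takes in 1000 bp before the start and 200 bp after it, the same 6 genes had an IDR summit, against 14.7% of all protein-coding genes. With replicate 1 alone, 6 genes had a summit in that wider window. The remaining summits were 3 further upstream and 6 inside the genes, each of those 6 in an intron. None of the 17 IDR summits was in a coding exon. The shares of all IDR summits in introns and coding exons were not computed, so these places are not shown to be particular to these genes. Only the outermost start of each gene was used to find the nearest protein-coding gene start. That start belonged to the gene itself for 12 of the 17 summits. The other 5 were the 3 of let-363, the 1 of ragc-1 and the most downstream of hlh-30. That hlh-30 summit was 12079 bp from the start of W02C12.2 but 1008 bp from an internal annotated start of hlh-30. A gene whose own start was the nearest to a summit in its region was found for 6 of the 10, against 18.5% of all protein-coding genes.

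The DNA under the summits is described by the short words it holds. A total of 10 words was searched on both strands in the window of each summit, which is the summit base with 50 bp on each side. Of the 17 windows, 8 held GAGAGA on either strand, against 20.8% of all 6283 IDR windows. When the whole peak was searched, the word was in 11 of the 17, against 39.8% of all IDR peaks. The 8 windows were at 4 genes, with 4 at hlh-30 and 2 at lgg-1. The following 5 are shown because they include the strongest summits of lgg-1, rsks-1, hlh-30 and atg-18 and the summit nearest to the hlh-30 start. Each line is the window of 1 summit, read 5′ to 3′ on the strand of the gene from the RefSeq copy of WBcel235, the assembly that ce11 names, with GAGAGA, or its reverse complement TCTCTC, in capitals.
lgg-1, 859 bp upstream (chrII:6348528-6348628, minus strand): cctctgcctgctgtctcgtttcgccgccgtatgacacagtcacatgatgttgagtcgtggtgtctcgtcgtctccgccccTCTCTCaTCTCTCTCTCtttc
rsks-1, 1540 bp upstream (chrIII:11243530-11243630, plus strand): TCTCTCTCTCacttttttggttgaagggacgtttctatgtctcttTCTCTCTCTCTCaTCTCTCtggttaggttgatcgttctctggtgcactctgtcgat
hlh-30, 14899 bp downstream (chrIV:4020002-4020102, minus strand): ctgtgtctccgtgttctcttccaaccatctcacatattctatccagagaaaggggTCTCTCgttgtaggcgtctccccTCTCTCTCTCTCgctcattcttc
hlh-30, 130 bp upstream (chrIV:4035031-4035131, minus strand): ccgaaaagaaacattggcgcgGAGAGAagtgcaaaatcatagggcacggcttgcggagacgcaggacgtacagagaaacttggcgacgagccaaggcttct
atg-18, 216 bp upstream (chrV:8631493-8631593, minus strand): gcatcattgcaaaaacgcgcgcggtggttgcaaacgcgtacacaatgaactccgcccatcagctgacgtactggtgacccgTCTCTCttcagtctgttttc

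The windows at lgg-1, at rsks-1 and inside hlh-30 contain runs of alternating C and T, while the hlh-30 start window and the atg-18 window hold the word once. The atg-18 window also held GCGCGC, as did 4.42% of all windows and no other of the 17.

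TAAT, the core that homeodomain proteins of the paired class commonly contact, was found in 6 of the 17 windows, against 57.1% of all IDR windows. It was present at 2 of the let-363 summits, 1 hlh-30 summit and the summits of daf-15, ragc-1 and atg-9 shown next, and in none of the 8 windows with GAGAGA, while 38.8% of the 1308 windows with GAGAGA among all IDR peaks also held TAAT. In these lines TAAT, or ATTA from the other strand, is in capitals.
daf-15, 13 bp upstream (chrIV:9386145-9386245, plus strand): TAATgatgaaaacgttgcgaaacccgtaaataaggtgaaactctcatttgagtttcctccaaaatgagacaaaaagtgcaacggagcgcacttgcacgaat
ragc-1, 164 bp upstream (chrIV:11605047-11605147, minus strand): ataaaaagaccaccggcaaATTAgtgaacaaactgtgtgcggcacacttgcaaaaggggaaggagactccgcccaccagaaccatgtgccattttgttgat
atg-9, 951 bp upstream (chrV:348384-348484, plus strand): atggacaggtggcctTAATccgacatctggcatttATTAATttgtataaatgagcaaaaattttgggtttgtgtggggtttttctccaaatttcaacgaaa

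The longer homeodomain words were absent from the 17 windows. TAATTA, which contains TAAT on both strands, was in 0 of 17, against 4.54% of all windows. The inverted pairs in which TAAT is followed by ATTA after 2 or 3 bases of any kind, bound by dimers of paired-class homeodomains, were in 0 of 17 each, against 0.366% of all windows for a spacing of 2 and 0.621% for a spacing of 3. When the whole peak was searched, TAAT was in 13 of the 17 peaks, against 88.9% of all IDR peaks, and TAATTA was in 1 of the 17, against 14.5%.

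CACGTG, the E-box core that factors of the HLH-30 type are known to bind, was in 2 of the 17 windows, against 4.14% of all windows. When the whole peak was searched, it was still in 2 of the 17, against 8.93% of all IDR peaks. The 2 windows are shown with the word in capitals, those of the summit nearest to the atg-9 start and of an intronic summit of hlh-30 itself.
atg-9, 157 bp upstream (chrV:349178-349278, plus strand): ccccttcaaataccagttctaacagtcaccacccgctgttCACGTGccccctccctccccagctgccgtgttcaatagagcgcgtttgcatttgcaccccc
hlh-30, 8830 bp downstream (chrIV:4026071-4026171, minus strand): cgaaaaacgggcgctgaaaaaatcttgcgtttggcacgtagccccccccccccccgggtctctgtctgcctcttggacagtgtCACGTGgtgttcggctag

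The let-363 summit inside the gene held none of the 10 words. The longer form TCACGTGA, which contains CACGTG, was in none of the 17 windows, against 0.477% of all windows. TGATAA, a word bound by zinc-finger factors of the worm intestine, was in none either, against 6.48%. TTTCAG, found at the end of many worm introns, was in the window of 1 hlh-30 summit, on the strand opposite to the gene, against 8.5% of all windows. The windows had a median GC content of 47.5%, ranging from 35.6% to 61.4%, against a median of 42.6% over all IDR windows. GC content changes how often each word occurs, and its part in these counts was not tested. A match here is a description of the letters in the window and does not show what is bound there.

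The TOR kinase itself is encoded by let-363 (WBGene00002583; chromosome I, 5245743 to 5263424, plus strand). Its region held 3 IDR summits, none in its promoter window. The strongest (I, 5240785) was 4958 bp upstream, near the edge of the region, and lay in an intron of C32E12.4. It had a signal of 259 at rank 1722, with rank 2003 in replicate 1 and rank 1547 in replicate 2. The next, 1465 bp upstream, had a signal of 220 at rank 2175, with rank 1942 in replicate 1 and rank 2366 in replicate 2. It was 5 bp upstream of the start of mrpl-47, a gene on the same strand named for a mitochondrial ribosomal protein, which ends 341 bp before let-363 starts. The last was in intron 29 of the annotated transcripts, 16043 bp downstream of the start and 1908 bp from the start of vep-1, at rank 3394, with ranks 3503 and 3864 in replicates 1 and 2. Each of the 3 summits was nearer to the start of another gene, so none is attributed to let-363 by position, and with the upstream stretch ended at the next gene 1 summit was left.

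daf-15 (WBGene00000911; IV, 9386208 to 9394979, plus strand) encodes the worm Raptor, the subunit that presents substrates to TOR complex 1. Its single IDR summit (IV, 9386195) was 13 bp upstream of the start, the shortest distance among the 17. It had a signal of 126 at rank 4061. The replicates placed it differently, at rank 2661 in replicate 1 and at rank 5938 in replicate 2, the largest fold difference in rank among the 17, 2.23. It remained inside the 6283 strongest peaks of each replicate.

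The genes of the Rag GTPases RAGA-1 and RAGC-1, which act as a heterodimer that signals amino acid supply to TOR complex 1, had an IDR summit at ragc-1 and none at raga-1. ragc-1 (WBGene00012497; IV, 11603613 to 11604933, minus strand) had an IDR summit 164 bp upstream, with a signal of 123 at rank 4177, rank 4901 in replicate 1 and rank 3878 in replicate 2. The start of Y24F12A.1 on the opposite strand was 157 bp from the same summit, in the 321 bp between the divergent starts, so the summit can be assigned to neither gene alone. raga-1 (WBGene00006414; II, 11301359 to 11302776, plus strand) had no IDR summit. The pooled list held 2 summits in its region, at ranks 19468 and 26436, both beyond saps-1, the gene that ends 99 bp before raga-1 starts. Each replicate had 1 summit there, at rank 18167 in replicate 1 and at rank 16037 in replicate 2, far below the IDR threshold. Whether the Rag genes differ in occupancy was not tested.

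rsks-1 (WBGene00012929; III, 11245120 to 11252281, plus strand) encodes S6 kinase, a direct substrate of TOR complex 1 that stimulates translation. Its IDR summit was 1540 bp upstream (III, 11243580), outside the promoter window, with a signal of 126 at rank 4062, rank 3314 in replicate 1 and rank 5195 in replicate 2. No other protein-coding start was nearer. The pooled list held 7 further summits in the region that did not pass the threshold, the strongest of them in an intron 1994 bp downstream at rank 10653. Another, at rank 16473, was in the 5′ UTR, 88 bp from the start. Each replicate list had 8 summits in the region.

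hlh-30 (WBGene00020930; IV, 4014793 to 4034951, minus strand) carried the most IDR summits of the 10 genes. Of all protein-coding genes, 0.36% had 6 or more in their region. The hlh-30 region is long, 25159 bp, so it was also set beside the 288 protein-coding genes with a region of 20 to 30 kb. Of these, 64.2% had at least 1 IDR summit, 35.8% had at least 2 and 5.56% had 6 or more, and the median was 1. The density at hlh-30 was 2.38 IDR summits per 10 kb. All 6 summits were found in both replicates, and 5 of them had the stronger rank in replicate 2. The IDR list was made from these replicates, so a match in both is not independent support. The region also held 16 pooled summits outside the IDR list, the strongest at ranks 6751 and 7015, each within a peak that overlaps an IDR peak.

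The hlh-30 summits are described from the start of the gene downwards. The first, 130 bp upstream, had a signal of 139 at rank 3705, with ranks 3305 and 4054 in replicates 1 and 2. The second, 4629 bp downstream, had a signal of 262 at rank 1689, with ranks 2199 and 1447. The third, 6582 bp downstream, had a signal of 126 at rank 4064, with ranks 5410 and 3293. It lay 242 bp from an internal annotated start, at 6824 bp, from which shorter transcripts begin. Both the second and the third summit were in a 7694 bp intron, the first of 3 of the 13 annotated transcripts.

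The remaining 3 hlh-30 summits were in the 8295 bp intron that follows. The fourth, 8830 bp downstream and 942 bp from the internal start at 7888 bp, had a signal of 116 at rank 4416, with ranks 4605 and 4363 in replicates 1 and 2. The fifth, 10701 bp downstream, had a signal of 170 at rank 2977, with ranks 4319 and 2290. The last, 14899 bp downstream, was the strongest of the gene, with a signal of 280 at rank 1512 and ranks 2029 and 1375. It overlapped the non-coding RNA gene W02C12.4 and lay 1008 bp from a group of internal starts between 15907 and 16620 bp. The annotation gives hlh-30 10 distinct transcript starts, more than any other of the 10 genes, and which of them was in use in these larvae was not measured.

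**Figure D2:**
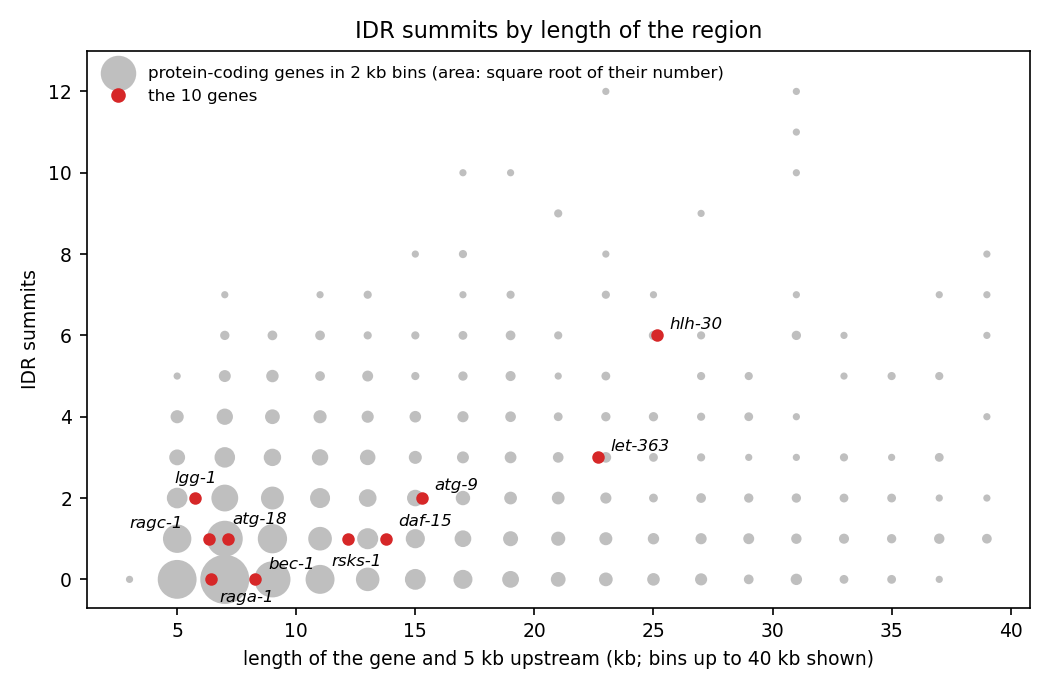
Number of IDR summits (vertical axis) against the length of the gene with 5 kb upstream in kb (horizontal axis) for all protein-coding genes with a region of up to 40 kb (grey, in 2 kb bins, with area following the square root of the number of genes) and for the 10 genes (red, labelled). hlh-30, with 6 summits in 25159 bp, stands above the other 9 genes, and raga-1 and bec-1 lie at 0.

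The autophagosome genes lgg-1 and atg-9 each had 2 summits close to the start. lgg-1 (WBGene00002980; II, 6346960 to 6347719, minus strand) encodes the worm GABARAP-type Atg8 protein, which is attached to lipid on autophagosomal membranes. Its summit 859 bp upstream (II, 6348578) was the strongest of all 17, with a signal of 334 at rank 1120, rank 883 in replicate 1 and rank 1325 in replicate 2. The second lgg-1 summit, 130 bp upstream and 729 bp from the first, was the weakest of the 17, with a signal of 81.7 at rank 6066. It was at rank 5766 in replicate 2 and at rank 7295 in replicate 1, the only 1 of the 17 outside the 6283 strongest peaks of a replicate, and its summit in replicate 1 was displaced by 96 bp. Another lgg-1 summit, in the 3′ UTR, was just outside the IDR list, with a signal of 76.1 at rank 6445.

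atg-9 (WBGene00020706; V, 349385 to 359658, plus strand) encodes the membrane protein of the vesicles that supply growing autophagosomes. Its summit 951 bp upstream had a signal of 137 at rank 3752 and was stronger in replicate 2 (rank 2915) than in replicate 1 (rank 5829). The summit 157 bp upstream, 794 bp from the first, had a signal of 122 at rank 4234 and showed the opposite order, rank 5219 in replicate 2 and rank 3231 in replicate 1. With differences of this size between replicates, the order of the 2 atg-9 summits was not resolved. Another summit, 726 bp upstream, was at rank 7065 in the pooled list and did not pass the threshold, although it was at rank 5718 in replicate 2. The peak of that summit overlaps the IDR peak of the summit 951 bp upstream.

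atg-18 (WBGene00018294; V, 8629174 to 8631327, minus strand) encodes a WIPI-type protein that binds phosphatidylinositol 3-phosphate on the forming membrane. Its single IDR summit, 216 bp upstream (V, 8631543), had a signal of 186 at rank 2682, with ranks 2817 and 2704 in replicates 1 and 2, close together. No other protein-coding start was nearer.

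bec-1 (WBGene00000247; IV, 5661141 to 5664425, minus strand) encodes the worm Beclin 1, a subunit of the lipid kinase complex that starts autophagosome formation, and had no IDR summit. The strongest pooled summit in its region was 3027 bp upstream, with a signal of 75.7 at rank 6469, just below the lowest IDR signal of 78.4. It was at rank 5893 in replicate 2 and at rank 11047 in replicate 1. The nearest start to it was that of T19E7.6, 2051 bp away. The other pooled summits of the region were at ranks 11528, 13152 and 21859. When replicate 2 alone was cut to as many peaks as there are IDR peaks, bec-1 had 1 summit, and with replicate 1 alone it had 0.

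All 17 IDR summits overlapped a peak in the full list of each replicate, and 16 were among the 6283 strongest of both. Ranks ran from 883 to 7295 in replicate 1 and from 1325 to 5938 in replicate 2. For 8 of the 17 the ranks differed by more than 1.5 times, and 10 of the 17 had the stronger rank in replicate 2. The same shares over all IDR peaks were not computed, so whether these sites repeat better or worse than the rest is not known. The replicate summit lay a median of 19 bp from the IDR summit in replicate 1 and 5 bp in replicate 2. The IDR list was made from these same replicates, so this is not an independent measure of reproducibility. Of the 17 peaks, 12 were 396 bp wide, a width shared by 55.1% of all IDR peaks.

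**Figure D3:**
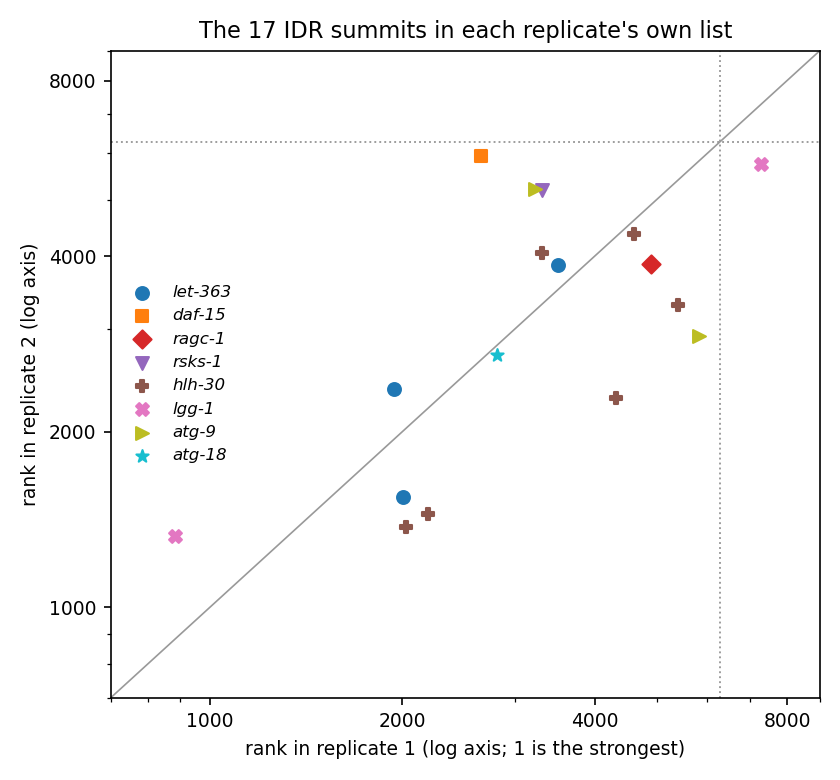
Rank of each of the 17 IDR summits in the full list of replicate 1 (horizontal) and replicate 2 (vertical), on log axes with 1 as the strongest; the line marks equal ranks and the dotted lines mark rank 6283. All points except the weaker lgg-1 summit, at rank 7295 in replicate 1, lie inside both dotted lines, and the daf-15 summit lies farthest from the line, at rank 2661 in replicate 1 and rank 5938 in replicate 2.

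Below the threshold, 43 further pooled summits lay in the 10 regions, with a median rank of 16454. Of these, 25 overlapped a peak in both replicates, 13 in replicate 2 alone, 3 in replicate 1 alone and 2 in neither. Of the 43, 6 were summits of peaks that overlap an IDR peak. A replicate peak matched to these can be that of the neighbouring IDR summit. A summit in a coding exon was seen for 11 of the 43 and for 0 of the IDR summits at these genes. The shares over all peaks were not computed. The strongest pooled summits outside the list were at lgg-1 (rank 6445), bec-1 (rank 6469), hlh-30 (rank 6751) and atg-9 (rank 7065), and the next gene was rsks-1 (rank 10653). atg-18 had 3 such summits, in coding exons of its neighbours oac-29 (rank 12198) and grl-12 (rank 20299) and in its own 3′ UTR (rank 27740). The other 3 upstream of lgg-1 were at ranks 17608, 19763 and 24953, and the other 3 at atg-9 were at ranks 12675, 23608 and 24096. The single such summits of ragc-1 (rank 16454), let-363 (rank 20845) and daf-15 (rank 21655) were in coding exons, that of let-363 in its own and the other 2 in those of Y24F12A.1 and C10C5.7. Counting every summit, hlh-30 had 22 in the pooled list, 19 in replicate 1 and 23 in replicate 2, and let-363 had 4, 4 and 7 in the same order. raga-1 had the fewest, with 2 in the pooled list and 1 in each replicate. Every 1 of the 10 genes had a summit in the pooled list, as did 59.3% of all protein-coding genes, and in each replicate list, where 67.4% did in replicate 1 and 60.9% in replicate 2.

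The wider pathway was described with lists of named genes. Among components of the TOR complexes and the Ragulator scaffold, 6 of 11 genes had an IDR summit, and 3 of 7 without the genes described above, against 32.9% of all protein-coding genes. The 3 were rict-1, which encodes the Rictor subunit of TOR complex 2 (rank 707, 515 bp upstream, nearer to the start of gfm-1), rheb-1, a GTPase that activates TOR (rank 962, 286 bp upstream), and lmtr-3 of the Ragulator (rank 1740, 29 bp upstream). mlst-8, sinh-1, lmtr-2 and lmtr-5 had none. In promoter windows the list had 5 of 11 genes, against 14.7% of all protein-coding genes.

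Of the regulators and targets of TOR, 21 of 29 genes had an IDR summit, with a median rank of 2967 for the strongest of each gene, against 32.9% and a median rank of 2287 over all protein-coding genes. Regions in this list were longer, with a median of 9.45 kb against 7.03 kb. With the upstream stretch ended at the next gene, 18 of the 29 had an IDR summit, against 22.8% of all protein-coding genes. For some of the 21, such as aakg-2 and ife-3, the strongest summit in the region was nearer to the start of another gene. The strongest 4 other than rsks-1 were at daf-16, the FOXO factor of insulin signalling, at ifg-1, the eIF4G of translation initiation, and at aak-2 and aakg-1, subunits of the energy sensor AMP-activated kinase. daf-16, a gene of 26206 bp, had 11 summits. The strongest was in an intron 4078 bp downstream at rank 34, with rank 58 in replicate 1 and rank 31 in replicate 2. ifg-1 had 2 summits. The stronger, at rank 680, was 1739 bp upstream in a coding exon of M110.3 and nearer to the start of M110.10. The strongest aak-2 summit, at rank 902, was in an intron 924 bp downstream. At aakg-1, a gene of 36738 bp whose strongest summit was at rank 1179 and 19041 bp downstream, 5 summits were found. The counts at daf-16 and aakg-1 were not set beside genes of like length. In promoter windows the list had 10 of 29 genes, against 14.7% of all protein-coding genes.

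Of the core autophagy genes, 20 of 33 had an IDR summit, and 11 of 33 had one in the promoter window, against 32.9% and 14.7% of all protein-coding genes. Their regions had a median length of 7.61 kb. Without lgg-1, bec-1, atg-9 and atg-18 the counts were 17 of 29 and 8 of 29. With the upstream stretch ended at the next gene, 17 of the 33 had an IDR summit, against 22.8% of all protein-coding genes. For some of the 20, such as epg-5, atg-3 and pink-1, the strongest summit in the region was nearer to the start of another gene. The strongest were at lgg-2, the LC3-type companion of lgg-1, with 3 summits, the strongest in an intron 357 bp downstream at rank 60 (rank 89 in replicate 1 and rank 54 in replicate 2). Next was epg-7, a scaffold protein of aggregate autophagy, with a summit 136 bp upstream at rank 74. dct-1, a mitophagy receptor gene related to BNIP3, had its strongest summit 2650 bp upstream at rank 146, and epg-9, the worm ATG101, had an intronic summit 1025 bp downstream at rank 280. Without the genes described above, the strongest summit of each of the 17 genes had a median rank of 895, while lgg-1, atg-18 and atg-9 were at 1120, 2682 and 3752. The 13 genes with none included bec-1 and its partners in the lipid kinase complex, vps-34 and vps-15, whereas epg-8, which encodes the ATG14 subunit, had a summit 237 bp upstream at rank 406; these partners were singled out after their values had been seen.

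**Figure D4:**
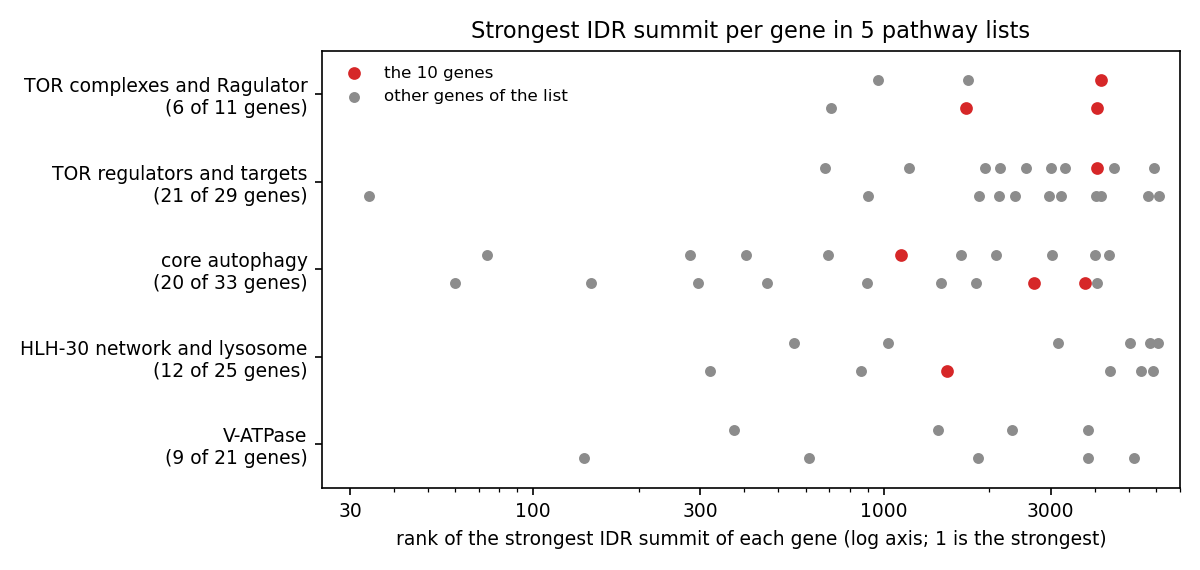
Rank of the strongest IDR summit of each gene (horizontal, log axis, 1 is the strongest) in 5 lists of pathway genes, with the number of genes that have an IDR summit beside each name; genes without a summit are not drawn. Red points are the 10 genes described here and grey points the other genes, vertical offsets only separate points; lgg-2 at rank 60 and daf-16 at rank 34 are the strongest of their lists, and the red points lie between ranks 1120 and 4177.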

How the data were processed

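The authors deposited peak lists for each replicate and for the pooled replicates, and the pooled peaks past their IDR threshold. The sources used here name no aligner, peak caller, version or IDR threshold. In the authors' files a peak carries a signal of unstated scale, a q-value as −log10 and the offset of its summit in bp. The signal was used to rank and describe peaks within a list and was not compared between lists, and the −log10 q-value, which has a ceiling in each deposited list, was not used. Lists on ce10 were not used.

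Summits were assigned with Python 3.11.15, pandas 2.3.3 and pysam 0.24.0 to protein-coding genes of Ensembl release 115 (WBcel235), 1-based, to every gene whose region held them. Replicate peaks were matched to a peak by an overlap of at least 1 bp, with the nearest summit where several overlapped. The window rules were tested on simulated positions.

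All 10 genes are named and each of their IDR summits is described, with, for each list, up to 4 other genes with the strongest IDR summit, and genes that contain a summit or have the nearest start. The members, lists, words and windows were chosen with earlier results of these data known. All 119 list entries matched the annotation, epg-1 under its present symbol atg-13.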

Additional observations from a re-analysis of the deposited data

How the results depend on the processing

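The counts depended on how many of the strongest IDR peaks were kept, and the IDR threshold itself was not varied. With the stronger 50% of IDR peaks, 4 genes had a summit in their region, 2 in the promoter window and 1 within 250 bp upstream, with 7 summits in all, and the counts fell to 12 for regulators and targets of TOR and to 5 for the HLH-30 network and lysosome. The share of all protein-coding genes was then 20.9%. With 1 kb upstream, 13 core autophagy genes and 6 genes of the HLH-30 network had a summit, against 20 and 12 with 5 kb, while the share of all protein-coding genes was 19.6%, against 32.9% with 5 kb. With the upstream stretch ended at the next gene, 5 of 21 V-ATPase genes had a summit, against 9, close to the 22.8% of all protein-coding genes under that setting. The whole peak held TAAT in 13 of 17 cases, against 6 windows of 50 bp on each side.

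With each replicate alone, cut to as many peaks as there are IDR peaks, 8 to 9 of the 10 genes had a summit, with 16 to 23 summits, and 4 to 6 genes had 1 within 250 bp upstream. A reciprocal overlap of 50% left 15 of the 17 summits matched in both replicates. Among single genes, the stronger 50% of peaks left 0 summits at daf-15, ragc-1, rsks-1 and atg-9, 1 at lgg-1, 2 at let-363 and 3 at hlh-30. let-363 had 2 with 2 kb upstream, 1 with 1 kb or with the stretch ended at the next gene, and 0 by nearest start. rsks-1 had 0 with 1 kb, and by nearest start ragc-1 had 0 and hlh-30 5. With replicate 2 alone hlh-30 had 8, lgg-1 4, atg-9 3 and bec-1 1, and with replicate 1 alone lgg-1 had 1. The causes of these changes were not tested. Assignment to the nearest start was not run for the pathway lists. No paired analysis was possible because there was 1 group.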

Other observations

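Genes around lysosomes were described in the same way. In the list of hlh-30, its network and lysosomal genes, 12 of 25 had an IDR summit, and 5 of 25 had one in the promoter window, against 32.9% and 14.7% of all protein-coding genes. The strongest were at lipl-2, a lysosomal-type lipase gene (rank 319, 1550 bp upstream, nearer to ztf-7), at mdl-1 and mxl-3, which encode basic helix-loop-helix factors of the Mad and Max type, and at cpl-1, the cathepsin L gene (rank 1028, 3339 bp upstream, nearer to T03E6.9). mdl-1 had 6 summits in its region, the strongest 4533 bp upstream at rank 555 and slightly nearer to R03E9.2, and mxl-3 had 4, the strongest 2569 bp upstream at rank 861. Among the lysosomal lipases, lipl-1, lipl-3 and lipl-5 had no IDR summit and lipl-4 had 1 in its 3′ UTR at rank 6068; these lipases were singled out after their values had been seen.

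Of 21 genes of the V-ATPase, the proton pump that acidifies lysosomes, 9 had an IDR summit in their region and 7 in the promoter window, against 32.9% and 14.7% of all protein-coding genes. With the upstream stretch ended at the next gene 5 of 21 had one, against 22.8%. The strongest were at unc-32 (rank 140, 1332 bp upstream, 152 bp from the start of lin-9), vha-13 (rank 375, 4301 bp upstream, nearer to cept-2), vha-8 (rank 614, 4923 bp upstream, nearer to dyci-1) and vha-12 (rank 1426, 344 bp upstream). vha-1 and vha-2 share 1 summit, at rank 3834, which lay in a coding exon of sqv-3.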
